A study of Caenorhabditis elegans with 36 samples.

Results

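Small RNAs were followed at 6 protein-coding genes of the nematode Caenorhabditis elegans, ckk-1 (WBGene00000518), dlk-1 (WBGene00001008), B0001.5 (WBGene00007090), C08F11.7 (WBGene00007454), F15D4.5 (WBGene00008862) and F21D9.8 (WBGene00009021), out of 31003 gene rows counted in adults and 46739 in embryos. The genes were chosen by name because their small RNA counts were low in both adult mutants of the series, so the adult differences between mutants and wild type chose them and are given below as a description with no test. No cut-off was set, and other genes fell as far. All 6 were found in the adult, embryo input and embryo immunoprecipitate (IP) tables.

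The series concerns mutations named nip1, nip2 and nip3 in a study of the inheritance of RNA silencing, and comprises 36 samples, of which 16 are small RNA libraries. Worms were grown at 20 °C. The adult groups were whole young adults of wild type (wt, 2 libraries, numbered 1 and 3), of a nip2nip3 double mutant (3 libraries, alleles not named in the labels) and of nip3_qe17, a mutant of nip3 with the allele qe17 (3 libraries). Embryo libraries came from mixed-stage early embryos of wt and of a strain labelled nipnip2, with 2 input and 2 IP libraries each. The IP took FLAG-tagged NRDE-3, and the tag is recorded for the embryo libraries of both strains except 1 wt input, which is labelled as whole animal. The column headers of the embryo tables name the mutant nip1nip1 or nip1nip2 and carry other numbers than the labels, so each column was tied to a strain and not to a particular sample. The labels do not say whether replicates were grown apart, so the tests measure the spread between these libraries, which may be technical.

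Most small RNAs of a silenced nematode gene are secondary small interfering RNAs, the 22G-RNAs. RNA-dependent RNA polymerases make them antisense to a target RNA, and they carry a 5′ triphosphate, so a 5′-independent library method is needed to capture them. Argonaute proteins then bind them. NRDE-3 is the Argonaute that carries such RNAs into nuclei of somatic cells, and much of its embryonic load derives from targets of ERGO-1 and its 26G-RNAs. A count at a gene below is therefore a count of small RNA reads assigned to it, not of its messenger RNA. The counting strand is not given in the sources used here.

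The 6 genes lie on 5 autosomes. The first 2 encode kinases. ckk-1 (chromosome III, 5635479 to 5654564 in ce11) encodes a calmodulin-dependent kinase kinase, which switches on CMK-1 in response to calcium. dlk-1 (chromosome I, 12565800 to 12572801) encodes the MAP kinase kinase kinase that starts axon regeneration after injury and is held down at synapses by the ubiquitin ligase RPM-1. The others are named here by sequence name only. B0001.5 spans 12141165 to 12143331 and C08F11.7 spans 13637275 to 13638666 on chromosome IV. F15D4.5 spans 13245376 to 13247774 on chromosome II, and F21D9.8 spans 19279218 to 19279988 on chromosome V. Their annotated spans run from 771 bases at F21D9.8 to 19086 bases at ckk-1, so levels are compared below between conditions within a gene and not between genes. No gene had the same adult counts as another row of the table.

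In adults every locus kept less than 10% of its wt small RNAs in each mutant, and no mutant library reached a wt library at any of the 6. Levels are CPM, that is, counts scaled to a common library size, after scaling by trimmed mean of M-values (TMM). Adult libraries held 6362077 to 10962202 counts. Over all rows, 21.9% of 16585 tested genes were higher and 21.3% lower in nip2nip3, and 17.8% were higher and 19.1% lower in nip3_qe17 (edgeR quasi-likelihood, Benjamini-Hochberg adjusted p under 0.05, hereafter called). All 6 loci were called lower in both mutants, from which nothing is read, since these contrasts chose them. In bulk samples such as these, fewer cells of a type and less RNA per cell cannot be told apart.

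At ckk-1 the wt libraries held 328 and 307 CPM. The nip2nip3 libraries held 4.17, 4.21 and 3.63 CPM, and the nip3_qe17 libraries 9.296, 9.48 and 11.5 CPM. The groups did not overlap, and wt was at least an order of magnitude above every mutant library. The raw counts behind these levels were 2559 and 2619.5 in wt, 26 to 35.5 in nip2nip3 and 53 to 126 in nip3_qe17. The mean in nip2nip3 was thus 1.26% of the wt mean, the lowest residual of the 6 loci, and that in nip3_qe17 3.18%.

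At dlk-1 levels were 355 and 370.4 CPM in wt, 9.62, 10.3 and 8.89 CPM in nip2nip3, and 37.0, 34.0 and 36.7 CPM in nip3_qe17. The 3 groups formed 3 separate tiers, with the single mutant between wt and the double mutant. Residual levels were 2.65% of wt in nip2nip3 and 9.90% in nip3_qe17, the widest gap between the mutants among the 6 loci.

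F21D9.8 was the least covered locus. It had 93.2 and 115 CPM in wt, 2.24, 1.89 and 2.45 CPM in nip2nip3, and 3.68, 3.79 and 4.49 CPM in nip3_qe17. Every nip2nip3 library was below every nip3_qe17 library, at 13 to 24 raw counts against 21 to 49. The residual was 2.11% and 3.84% of wt.

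At B0001.5 the wt libraries held 490.1 and 508 CPM, against 26.9, 26 and 26.1 CPM in nip2nip3 and 44.02, 36.7 and 35.9 CPM in nip3_qe17. The double mutant libraries lay within 1 CPM of each other and under all single mutant libraries. They kept 5.28% of the wt level, and the single mutant kept 7.79%.

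At C08F11.7 and F15D4.5 the mutants overlapped. C08F11.7 had 214 and 235 CPM in wt, 16.2, 13.3 and 13.9 CPM in nip2nip3, and 16.7, 14.5 and 15.5 CPM in nip3_qe17, leaving 6.43% and 6.92% of wt. F15D4.5 had the highest level at 1353 and 1409 CPM in wt, with 128, 124 and 121 CPM in nip2nip3 and 120.4, 134 and 123 CPM in nip3_qe17, leaving 8.98% and 9.13%. The genes with the least distance between the mutants were therefore not those with the fewest reads.

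**Figure D1:**
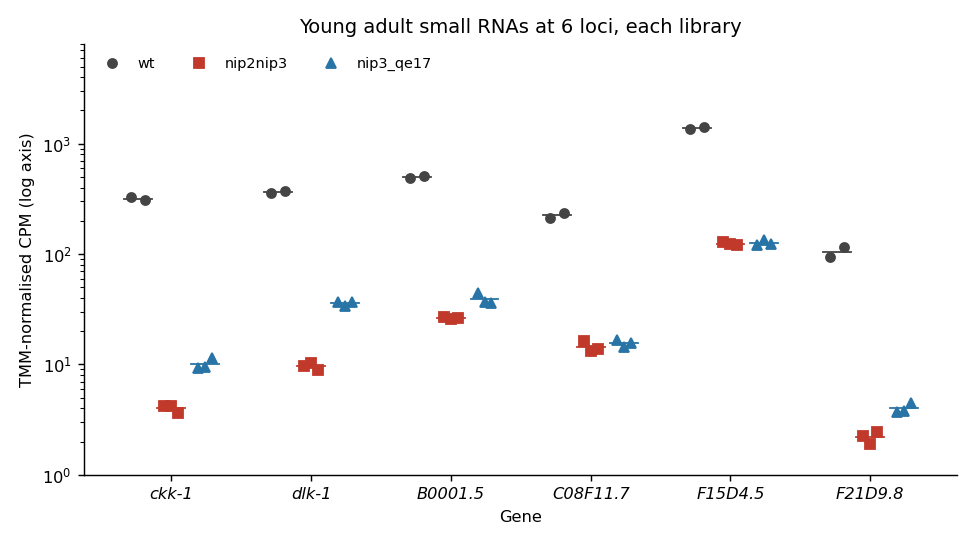
Small RNA levels of young adults at the 6 genes in each library, in TMM-normalised CPM on a log axis; points are libraries (wt n = 2, nip2nip3 n = 3, nip3_qe17 n = 3) and short bars are group means. The wt points sit above all mutant points at every gene, and nip2nip3 sits under nip3_qe17 without overlap at ckk-1, dlk-1, B0001.5 and F21D9.8.

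The log2 differences from wt ran from -6.31 (SE 0.13) at ckk-1 to -3.48 (SE 0.11) at F15D4.5 in nip2nip3, and from -4.96 (SE 0.12) at ckk-1 to -3.34 (SE 0.10) at dlk-1 in nip3_qe17. Over all genes tested the medians were 0.05 and 0.01. Counted from the lowest of 16585 genes, ckk-1 ranked 24 and 43 in the 2 mutants and F15D4.5 290 and 269, so the 6 loci lay in the lowest tail of the table without holding its lowest ranks. Together the 6 loci held 0.325% to 0.346% of all counts in wt libraries, 0.0164% to 0.0173% in nip2nip3 and 0.0207% to 0.0229% in nip3_qe17. Scaled by library totals the differences were -6.62 to -3.79 and -5.23 to -3.62, with all-gene medians of -0.27 and -0.26. Library totals gave 2233 higher and 5962 lower genes in nip2nip3, against 3638 and 3525 with TMM, and 1830 higher and 5051 lower in nip3_qe17, against 2959 and 3176.

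Small RNA counts at marker genes also moved between the adult groups, and their part in these differences was not tested. The 8 microRNAs mir-35 to mir-42, listed here as microRNAs known from embryos, summed to 4455 to 6095 CPM in wt, 2183 to 2274 in nip2nip3 and 1980 to 2857 in nip3_qe17. Small RNAs at the 31 listed major sperm protein genes summed to 132 to 162 CPM in wt and were higher, at 442 to 514 and 383 to 423 CPM, in the mutants. Those at 5 muscle genes summed to 23.6 to 37.2 CPM in wt and at most 2.89 CPM in any mutant library. Only 1 of these 5 had enough counts to be tested, so no fall across muscle genes is read. Those at 10 oocyte and eggshell genes were 656 to 697, 585 to 620.0 and 622 to 678 CPM. Yolk genes (19.7 to 23.5, 22.2 to 35.8 and 17.9 to 23.0 CPM) and 4 intestine genes (1.21 to 1.83, 1.94 to 3.59 and 2.02 to 2.81 CPM) overlapped or lay close between groups. No marker gene was at 0 in every library of an adult group, and the adult microRNA lin-4 was at 148 to 362 CPM.

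The comparison of the double with the single mutant asks whether loss of nip2 beside nip3 further changes these loci. The alleles of the double mutant are not named, so a different nip3 allele cannot be told apart from the loss of nip2. The choice of genes set no direction for this contrast. That choice drew on the same mutant libraries, however, so the calls below are not independent of it. Small RNAs at 4 of 6 loci were lower in nip2nip3 than in nip3_qe17, where 4.19% of all genes tested were called, 1.47% lower and 2.72% higher. The difference was -1.90 on the log2 scale at dlk-1 (95% interval -2.13 to -1.68, adjusted p = 1.27e-06) and -1.35 at ckk-1 (-1.65 to -1.05, adjusted p = 0.000226), by the edgeR quasi-likelihood test. At both, all 3 nip2nip3 libraries lay below all 3 nip3_qe17 libraries, and the share of all genes that separate so was not counted. At F21D9.8 it was -0.86 (-1.29 to -0.42, adjusted p = 0.0351) and at B0001.5 -0.56 (-0.79 to -0.32, adjusted p = 0.0134), again with no overlap between the mutants. The interval was -0.36 to 0.15 at C08F11.7, around -0.10 (adjusted p = 0.668), and -0.23 to 0.18 at F15D4.5, around -0.02 (adjusted p = 0.928), so a further loss as large as that at B0001.5 lay outside both intervals. The call at F21D9.8 was lost with DESeq2, in a fit of these groups alone and without any 1 of the 6 mutant libraries (log2 differences -0.96 to -0.76). The call at B0001.5 was lost without nip2nip3 replicate 2 or replicate 3, each at -0.55.

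**Figure D2:**
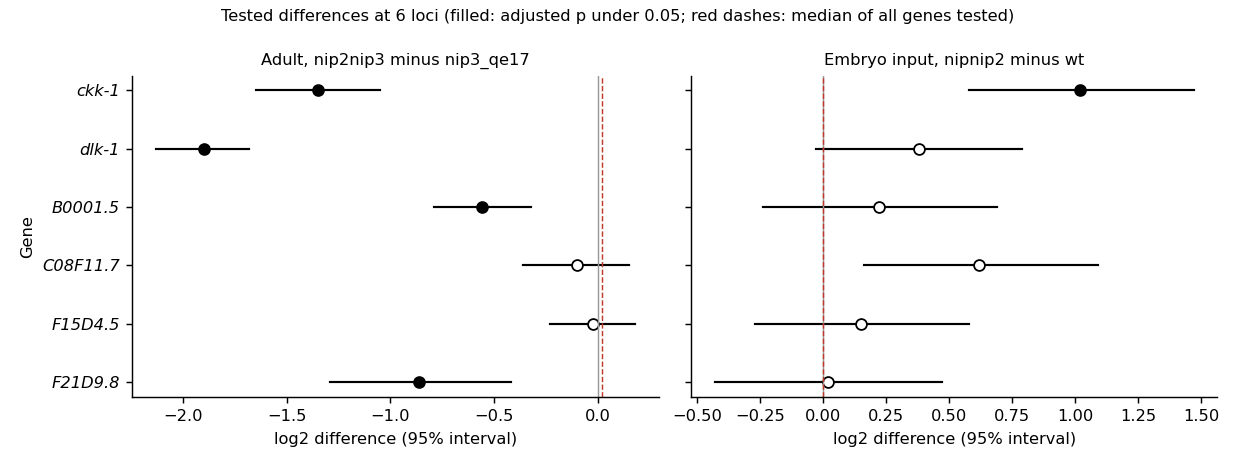
Log2 differences with 95% intervals at the 6 genes for adult nip2nip3 minus nip3_qe17 (left, n = 3 and 3) and embryo input nipnip2 minus wt (right, n = 2 and 2); filled points passed the test, and the dashed line is the median of all genes tested. Left, dlk-1 at -1.90 and ckk-1 at -1.35 lie farthest below 0; right, only ckk-1 at 1.02 is filled.

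The genes around each locus were examined to see how far along the chromosome the adult loss reached. On each side the nearest gene row with a mean of at least 20 adult counts was taken, giving 12 flanking genes 100 to 26814 bases away. Of these, 4 were lower and 2 higher in each mutant, and 6 were not called, against the shares of 21.3% lower and 21.9% higher over all genes in nip2nip3 and 19.1% and 17.8% in nip3_qe17. These genes were picked by position, and their tests are those of the fit over all genes.

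B0001.5 stood alone between close neighbours. B0001.8 ends 106 bases to its left and had 50.8 to 57.7 CPM in wt, 44.9 to 51.7 in nip2nip3 and 52.3 to 58.3 in nip3_qe17. B0001.3 begins 100 bases to its right and had 187 to 195, 158 to 182 and 169 to 193 CPM. Their log2 differences lay between -0.19 and 0.02, none called (adjusted p = 0.172 to 0.900, edgeR quasi-likelihood). ckk-1 likewise lies between daf-4, a TGF-beta receptor gene, and par-3, a cell polarity gene, which had 109 to 112 CPM in wt and 98.9 to 108 CPM in the mutants. Neither was called in either mutant. daf-4 had few reads, at 2.70 to 3.08 CPM in wt, with log2 differences of -0.39 (SE 0.40) in nip2nip3 and 0.02 (SE 0.38) in nip3_qe17.

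At F15D4.5 the loss was shared by both neighbours. F15D4.4, 2255 bases to the left, went from 10.6 to 16.1 CPM in wt to 1.02 to 2.15 in nip2nip3, a log2 difference of -3.02 (SE 0.36), and F15D4.6, 1412 bases to the right, from 223 to 237 CPM in wt to 23.2 to 27.5, a difference of -3.20 (SE 0.11). In nip3_qe17 the differences were -3.10 (SE 0.36) and -3.32 (SE 0.11). The F15D4.5 span also holds 2 annotated 21U-RNA loci (piRNA genes), 21ur-10492 with 82.3 to 93.9 CPM in wt and 1.92 to 5.50 CPM in the mutants, and 21ur-10687 with 31.3 to 33.9 and 0.877 to 3.41 CPM. Counts of F15D4.5 were fractional in 7 of 8 libraries, so some of its reads were divided among rows or positions, and how far these 3 rows share reads was not tested.

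The neighbours of C08F11.7 went opposite ways. The F-box gene fbxa-98, 2052 bases to the left, had 11.8 to 14.6 CPM in wt and 0 to 0.802 CPM in the mutants, with differences of -5.56 (SE 0.61) and -5.83 (SE 0.60) that rest on few reads. The glucuronosyltransferase-family gene ugt-22, 594 bases to the right, rose from 2.06 to 2.31 CPM in wt to 62.6 to 71.2 CPM in nip2nip3 and 29.4 to 30.5 CPM in nip3_qe17, with differences of 4.89 (SE 0.15) and 3.75 (SE 0.15). At dlk-1 the right neighbour F33E2.5, 18315 bases away, fell from 242 to 247 CPM to 12.1 to 18.1 and 19.5 to 21.2 CPM. W02D9.4, 26814 bases to the left and with few reads (2.82 to 3.64 CPM in wt), was not called. The touch-receptor gene mec-19, which overlaps the end of dlk-1 by 96 bases, had 0 CPM in wt and at most 0.458 CPM in any library. At F21D9.8 the right neighbour F55C9.3, a listed target of ERGO-1 26G-RNAs, rose from 284 to 310.1 CPM to 486 to 655 and 522 to 715 CPM. The other overlapping row, the small nucleolar RNA C05H8.3 inside ckk-1, had 10.03 to 10.3 CPM in wt and 12.3 to 19.5 CPM in the mutants, higher in nip2nip3 (0.80, SE 0.18, adjusted p = 0.00487, edgeR quasi-likelihood).

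**Figure D3:**
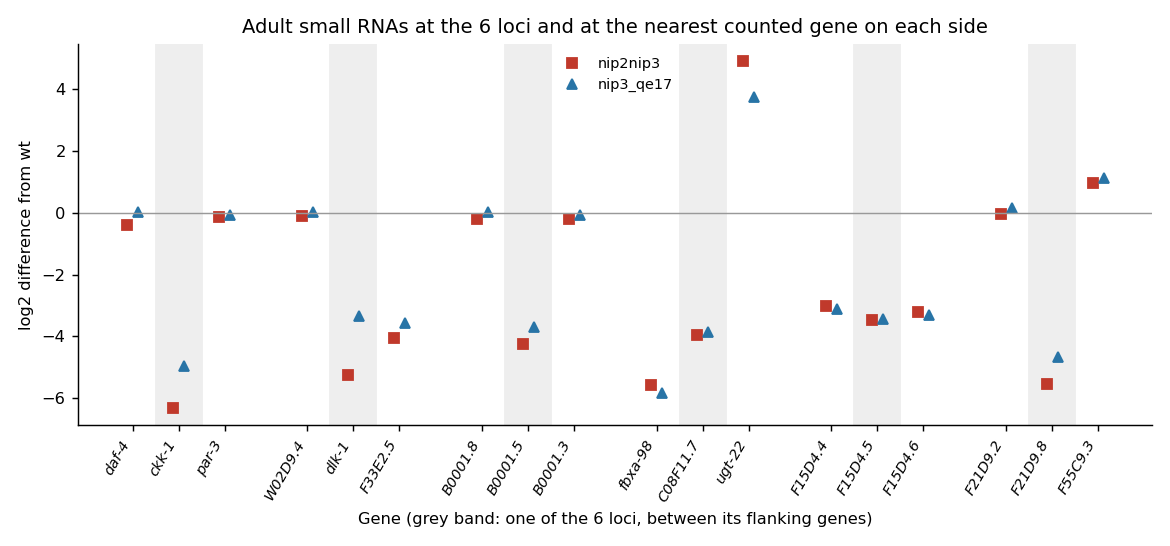
Log2 difference from wt in adult nip2nip3 (squares) and nip3_qe17 (triangles) at each of the 6 genes (grey bands) and at the nearest counted gene on its left and right. Neighbours of B0001.5 and ckk-1 lie near 0, both neighbours of F15D4.5 lie near the gene itself, and ugt-22 beside C08F11.7 lies at 4.89 and 3.75.

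Genes of the same pathways were counted against the shares over all genes, 21.9% higher and 21.3% lower in nip2nip3 and 17.8% and 19.1% in nip3_qe17. Of 16 tested genes of the DLK-1 pathway, 4 were higher and 5 lower in nip2nip3, and 1 higher and 5 lower in nip3_qe17, and nothing particular to the pathway is read from these counts. Their median log2 differences were -0.42 and -0.34. Small RNAs at pmk-3, the p38 MAP kinase under DLK-1, were lower by -0.51 (SE 0.11) and -0.32 (SE 0.11), and those at cebp-1, a transcription factor that DLK-1 signalling regulates, by -1.53 (SE 0.32) and -1.92 (SE 0.32). The kinase gene mek-1 was lower too, at -1.82 (SE 0.31) and -2.0 (SE 0.31). At svh-1, which encodes a growth factor of axon regeneration, they were higher, by 2.53 (SE 0.27) and 2.75 (SE 0.27).

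Over all genes 21.3% were lower in nip2nip3 and 19.1% in nip3_qe17, and 21.9% and 17.8% higher, and the counts of these short lists were not tested against those shares. Of 7 tested genes of the calmodulin kinase cascade 4 were lower in nip2nip3 and 3 in nip3_qe17, with medians of -0.31 and -0.33. The largest of these was cnb-1, the calcineurin B subunit gene, at -1.44 (SE 0.15) and -1.53 (SE 0.15). tax-6, the calcineurin A gene, was at -0.31 (SE 0.11) and -0.43 (SE 0.11). Of 17 other MAP kinase pathway genes 3 were higher and 4 lower in nip2nip3, and 2 and 4 in nip3_qe17, with sma-5 at 3.21 (SE 0.49) and lin-45, the Raf kinase gene, at -0.68 (SE 0.11) in nip2nip3. Of 10 tested neuron genes 2 were higher and 3 lower in nip2nip3, and 1 and 4 in nip3_qe17. These counts include egl-21, a neuropeptide-processing enzyme gene, at 2.27 (SE 0.16), and ric-4, the SNAP-25 gene, at -1.42 (SE 0.21) in nip2nip3. The medians over these lists were -0.05 and -0.05 for MAP kinase genes and -0.26 and -0.49 for neuron genes.

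The adult profiles most like the mean of the 6 loci were sought among 11483 genes by the root mean square difference of centred log2 CPM over the 8 libraries, which share their wt and mutant groups. The nearest were fbxa-120 (0.141), AC8.4 (0.229), T13C5.6 (0.270), WBGene00013614 (0.288) and Y7A5A.1 (0.289). The 6 loci themselves had 0.203 (B0001.5) to 0.569 (ckk-1). Of the like genes, fbxa-120 had 644 to 648 CPM in wt, 24.3 to 32.7 in nip2nip3 and 42.7 to 45.8 in nip3_qe17. Of the 5 like genes 4 are annotated on the X chromosome, where none of the 6 loci lies, and WBGene00013614 had no annotation. The share of X-linked genes among the 11483 was not counted, so nothing about the X chromosome is read from this. In embryo input their log2 differences between nipnip2 and wt were -0.19 to 0.57, none called.

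In embryo input the same loci held small RNAs in both strains, and none was called lower in nipnip2. Adult and embryo tables were counted and scaled apart, so their levels are set side by side without a test. By library totals, wt adults and wt embryo inputs held 369 and 127 CPM at ckk-1, 421 and 191 at dlk-1, 580 and 1759 at B0001.5, 261 and 65.1 at C08F11.7, 1604 and 1065 at F15D4.5, and 121 and 52.8 at F21D9.8. The embryo value was above the adult value at B0001.5 and below it at the other 5. Together the loci held 0.313% to 0.339% of counts in wt input, near the adult share, and 0.536% to 0.625% in nipnip2 input. Input libraries held 1149366 to 2200655 counts and IP libraries 2957435 to 5956980. In these embryo libraries lin-4 and the yolk genes were at 0 counts, and mir-35 to mir-42 summed to 83.2 to 147 CPM in input. By library totals those sums were 91.7 to 168 CPM in embryo input and 1971 to 7000 CPM in adults. All microRNAs made up 0.587% to 1.36% of embryo input counts and 21.9% to 26.2% of adult counts. The sums therefore do not decide whether these microRNAs mark embryos in these tables.

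At ckk-1 the wt inputs held 139 and 174 CPM and the nipnip2 inputs 302 and 336 CPM, so both mutant libraries were above both wt libraries. The log2 difference was 1.02 (SE 0.20, 95% interval 0.58 to 1.47, adjusted p = 0.0156, edgeR quasi-likelihood). It was the only 1 of the 6 loci called, where 6.35% of 8505 genes tested were called, 1.28% higher and 5.07% lower. The call was kept under each alternative run. The direction is opposite to that at ckk-1 in adult nip2nip3 and nip3_qe17, but strain and stage differ together, and the difference was not tested.

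dlk-1 had 225 and 245 CPM in wt input and 291 and 320.2 CPM in nipnip2, a log2 difference of 0.38 (interval -0.03 to 0.79, adjusted p = 0.319). C08F11.7 had 84.2 and 76.2 CPM against 109 and 139 CPM, a difference of 0.62 (0.16 to 1.09, adjusted p = 0.126), which was called at 0.80 when the first nipnip2 input was left out. Neither gene passed the test. The strains did not overlap at either, but with 2 libraries each and no count of how many genes separate so, nothing is read from that. The other 3 genes overlapped or nearly so. B0001.5 had 2011 and 2325 CPM against 2760 and 2304 CPM (interval -0.24 to 0.69), F15D4.5 1330 and 1294 against 1378 and 1542 CPM (-0.27 to 0.58), and F21D9.8 65.1 and 65.0 against 72.8 and 57.9 CPM (-0.43 to 0.47). A fall of the adult size, at least -3.34 on the log2 scale, lay outside the interval of every locus in embryo input.

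**Figure D4:**
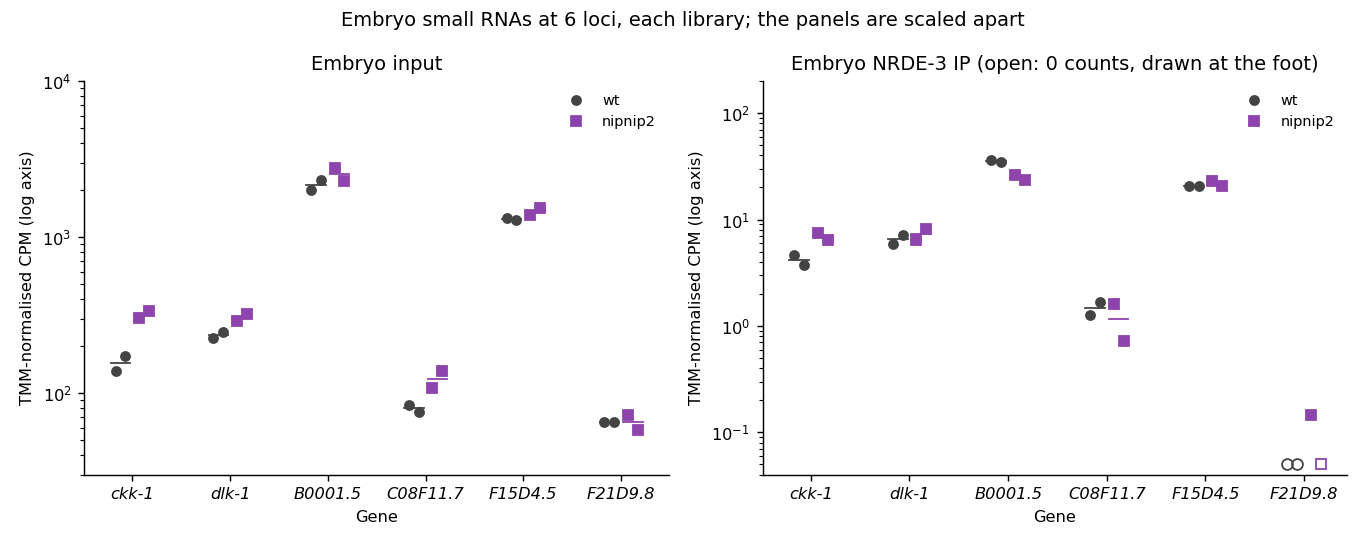
Small RNA levels at the 6 genes in each embryo input library (left) and NRDE-3 IP library (right), in CPM on log axes, each panel with its own TMM scaling (n = 2 per strain); bars are means and open symbols are libraries with 0 counts. Both nipnip2 inputs exceed both wt inputs at ckk-1, and F21D9.8 is at 0 counts in 3 of 4 IP libraries.

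The size of these embryo differences depended on the scaling. With library totals the median of all genes moved from 0.00 to 0.58 and 5 of 6 loci were called higher, from 0.73 at F15D4.5 to 1.60 at ckk-1, with F21D9.8 at 0.60 not called. With scaling to microRNA counts the all-gene median was 1.53 and all 6 were called, from 1.57 to 2.53. Over all genes, 1474 were then higher and 290 lower by library totals, and 6954 and 115 by microRNA counts, against 109 and 431 with TMM. Relative to the all-gene median, ckk-1 was 1.02 higher with TMM and 1.01 with library totals, and F21D9.8 was at the median. MicroRNA counts made up 0.587% to 1.36% of input counts, and 78.8% to 92.8% of them came from mir-260 and mir-8199.

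**Figure D5:**
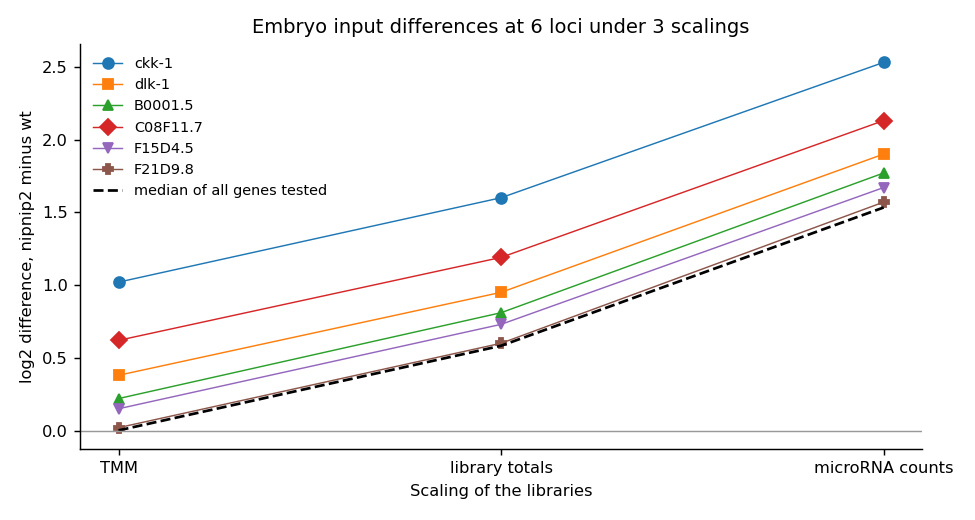
Log2 difference between nipnip2 and wt embryo input at the 6 genes under 3 scalings, with the median of all genes tested as a dashed line. All 6 genes move up with that median, from 0.00 to 0.58 and 1.53, and ckk-1 stays the farthest above it.

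Whether these small RNAs travel with NRDE-3 was examined by setting the IP against input. The loci were scarce in the IP, at 0.00336% to 0.00361% of counts in wt and 0.0112% to 0.0129% in nipnip2. Raw counts in the wt and nipnip2 IP libraries were 11, 11, 52 and 36 at ckk-1 and 14, 21, 44 and 45 at dlk-1. They were 86, 102, 180 and 130 at B0001.5 and 49, 61, 160 and 115 at F15D4.5. C08F11.7 had 3, 5, 11 and 4 counts, and F21D9.8 had 0, 0, 1 and 0.

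Only ckk-1, dlk-1, B0001.5 and F15D4.5 had enough IP counts to pass the filter on low counts in the IP libraries alone. Of these 4 loci, 2 were called lower in IP than in input of wt relative to the other genes, where 12.8% of 9248 genes tested were lower, and all 4 in nipnip2, where 14.7% were. Those shares are over all genes of the joint fit, many kept through the input. Only 2619 genes passed in the IP alone, and their share was not counted. C08F11.7 and F21D9.8 were also called lower in both strains, but they were kept through the input, where they are high, and nothing is read from those calls. In wt the log2 differences were -1.60 (SE 0.26) at F15D4.5 and -1.55 (SE 0.26) at B0001.5 (adjusted p = 1.34e-05 and 1.98e-05, edgeR quasi-likelihood). C08F11.7 was at -1.35 (SE 0.49) on 8 wt IP counts in all, given as a description only. ckk-1 at -0.85 (SE 0.35) and dlk-1 at -0.78 (SE 0.31) did not pass (adjusted p = 0.0744 and 0.0669), though both were called without either 1 of the nipnip2 inputs, at -0.96 and -0.88, and ckk-1 also without wt input 1. Both were called with no filter on low counts, by library totals and by microRNA counts too. With no filter 1744 of 20082 genes were lower in the wt IP. By library totals 8809 of 9248 genes were lower and by microRNA counts 8997, so nothing is read from calls under those scalings. The number of the 6 loci called, C08F11.7 and F21D9.8 included, ran from 3 to 6 over the alternatives run. The median of all genes was -0.59. F21D9.8 was at 0 in the wt IP. By library totals F21D9.8 in the wt IP was at 0% of its input level (exact Poisson 95% interval 0% to 0.673%, counting error only). That value is given as a description only. On the same scale the log2 median of all genes was itself -5.45. The C08F11.7 call was lost with DESeq2, in a fit of the wt groups alone, with a filter at a mean of 50 counts (-0.63), without wt input 1 and without either wt IP library (-1.66 to -1.20).

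In nipnip2 the differences were -0.98 (SE 0.27) at ckk-1 and -0.88 (SE 0.27) at dlk-1. B0001.5 was at -2.15 (SE 0.26) and F15D4.5 at -1.53 (SE 0.25). Adjusted p was 0.0111 or less at each of these (edgeR quasi-likelihood), and the all-gene median was -0.27. C08F11.7 was at -2.16 (SE 0.38), given as a description only. The dlk-1 call was lost with the filter at a mean of 50 counts (-0.51), without nipnip2 input 2 (-0.81) and without nipnip2 IP 1 (-0.79), and that at ckk-1 without nipnip2 IP 2 (-0.89). Of the 9 tested ERGO-1 target loci 8 were higher in the IP of each strain, where 1082 of all 9248 genes were higher in wt and 1464 in nipnip2. The ninth, B0250.8, was called lower in both, at -1.96 (SE 0.27) and -1.54 (SE 0.25). Among the higher loci F55C9.3, the neighbour of F21D9.8, was higher by 4.69 (SE 0.34) in wt and 4.26 (SE 0.33) in nipnip2. Without TMM factors the loci were 0.987% to 1.75% of their input level in wt at the 5 genes with IP counts, and 1.52% to 3.76% in nipnip2. On that scale ckk-1 was at 1.65% (exact Poisson 95% interval 1.02% to 2.52%, counting error only) in wt and 3.56% (2.84% to 4.43%) in nipnip2. F21D9.8 had 1 IP count in nipnip2, or 0.189% (0.00476% to 1.06%). The 10 highest IP rows held 42.4% to 47.5% of counts, and library totals put the all-gene median at -5.45 and -4.08.

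Between the strains, no locus was called in the IP. Only 4 of 6 had enough IP counts to be tested, where 33.4% of 2619 genes tested were called, 10% higher and 23.4% lower. 0 were called and 0 had an unadjusted p under 0.05 (edgeR quasi-likelihood), and DESeq2 called 0 as well. The intervals were -0.09 to 1.61 at ckk-1, -0.64 to 0.92 at dlk-1, -1.13 to 0.11 at B0001.5 and -0.55 to 0.73 at F15D4.5. By library totals all 4 were called higher, at 1.42 to 2.68, with an all-gene median of 2.10. The change of IP over input between the strains, tested as an interaction, was called at 0 of 6 loci by edgeR, with 0 at an unadjusted p under 0.05, where 0.876% of genes were called, 0.0541% higher and 0.822% lower. Its values were -0.12 at ckk-1, -0.11 at dlk-1, -0.60 at B0001.5 and 0.08 at F15D4.5. Intervals were wide at the loci with few IP counts, from -2.22 to 0.61 around -0.80 at C08F11.7 and from -4.84 to 12.7 around 3.93 at F21D9.8, where 1 IP count in all allows no reading.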

How the data were processed

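Small RNAs were sequenced with a 5′-independent method and Illumina TruSeq small RNA reagents, per the labels' protocols. Reads were trimmed with cutadapt, aligned with STAR to ce11 and counted with featureCounts, and DESeq2 was used, per the submitters' processing notes. Versions, counting options and strand are not given in the sources used here. The adult table holds estimated counts as deposited by the authors, with fractions, which were rounded for tests. The embryo tables hold whole counts as deposited, and 1 row naming no gene (0.000739% to 0.0320% of counts) was left out. The RNA-seq tables were not used here.

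Groups were taken from the labels. Genes passing filterByExpr were scaled by TMM and tested by edgeR (version 4.0.16, R 4.3.3) with its quasi-likelihood test. Benjamini-Hochberg adjusted p over all genes tested was called under 0.05. The 8 adult libraries were fitted together. Embryo input and IP were fitted apart for strain differences and together for IP against input. Intervals use the t distribution of each fit. The tests were checked on simulated counts.

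Alternatives were DESeq2 1.42.0, RLE scaling, library totals, scaling to microRNA counts, no filter on low counts, a mean of at least 50 counts, other sets of samples in the fit, a replicate block, and each library left out. The 6 genes, the gene lists and the rule for named genes were chosen with earlier results of these data known. The rule took the 6 genes, the genes overlapping them or nearest on each side with a mean of at least 20 adult counts, the 5 most alike adult profiles, and up to 3 called genes per direction and list by p, of which some are printed. Symbols matched 28876 of 31003 adult and 43720 of 46739 embryo rows. Coordinates are RefSeq's for WBcel235, which is ce11. Sequences of these genes were not used here. Columns of the gene tables without a sample numbered 0.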

Additional observations from a re-analysis of the deposited data

Results flagged for a closer look

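The effects of the mutants differed at 4 of the 6 loci by a test of the difference itself, nip2nip3 minus nip3_qe17 in adults, where 4.19% of all genes were called and 1.47% were lower. The log2 difference was -1.90 at dlk-1 and -1.35 at ckk-1, -0.86 at F21D9.8 and -0.56 at B0001.5. At each of the 4, all 3 double mutant libraries lay below all 3 single mutant libraries. The share of all genes that separate so was not counted, and nothing is read from this separation. The F21D9.8 call was lost with DESeq2, in a fit of these groups alone and without any 1 of the mutant libraries, and the B0001.5 call without nip2nip3 replicate 2 or 3, which left 2 loci called. The same wt libraries stand behind both effects, and they cancel in this difference. The mutant libraries also served to choose the 6 genes, so these calls are not independent of that choice.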

How the results depend on the processing

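In adults all 6 loci stayed lower in both mutants under every alternative run. The counts of called genes were 7163 and 6135 in nip2nip3 and nip3_qe17, 4508 and 3935 with a stricter filter (mean counts of 50 or more, fewer genes tested) and 4435 to 7586 and 3820 to 6244 with each library left out, the lowest without wt replicate 1. For nip2nip3 against nip3_qe17 the count of 695 became 372 to 657 with a library left out, and 4 loci called became 2 to 4, with 2 without nip2nip3 replicate 2 or 3. F15D4.5 turned from -0.02 to 0.02 with the 50-count mean and had -0.06 to 0.03 with a library left out.

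In embryo input 540 called genes became 353 with DESeq2, 1764 by library totals, 7069 by microRNA counts, 1022 with no low-count filter, 258 with the 50-count mean and 609 to 826 with a library left out. Loci called went from 1 to 5 by library totals, 6 by microRNA counts and 1 to 2 with a library left out. F21D9.8 then had -0.16 to 0.16. In the IP 876 genes became 2174 by library totals (2028 higher and 146 lower, against 262 and 614), 2030 by microRNA counts, 306 with the 50-count mean and 683 to 843 with a library left out. Loci called went from 0 to 4, 4 and 2 under the first 3 of these. There B0001.5 turned from -0.51 to 1.42, 1.58 and 1.26, and with a library left out dlk-1 had -0.08 to 0.37 and F15D4.5 0.00 to 0.17 with 1 value just under 0.

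For IP against input the wt count of 2265 became 8998 by library totals (189 higher and 8809 lower, against 1082 and 1183), 9010 by microRNA counts, 872 with the 50-count mean and 1379 to 2576 with a library left out. In nipnip2 2820 became 8833, 9026 and 1099 under the first 3. The interaction count of 81 became 173 with DESeq2, 1645 by library totals, 1 by microRNA counts and 10 to 141 with a library left out, and by library totals 1 locus was called, F15D4.5 at 1.29. The number of loci called in wt includes C08F11.7 and F21D9.8, from whose calls nothing is read. That number went from 4 to 3 with DESeq2, the 50-count mean or a fit of the wt groups alone. With no low-count filter, library totals or microRNA counts it went to 6. Interaction values changed sign under some alternatives. By library totals they were 1.07 at ckk-1, 1.10 at dlk-1, 0.60 at B0001.5 and 0.36 at C08F11.7, and by microRNA counts 0.34 at ckk-1 and 0.40 at dlk-1. F15D4.5 had -0.06 with DESeq2, -0.07 with RLE scaling and -0.28 with the 50-count mean. With a library left out the ranges were -0.27 to 0.06 at ckk-1, -0.25 to 0.07 at dlk-1, -0.04 to 0.26 at F15D4.5 and -0.03 to 4.88 at F21D9.8, which had 0 or 1 IP count in each library. Where the construction of an alternative does not show it, the cause was not tested.

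Same-numbered adult libraries had correlated deviations of -0.00624 to 0.230, not all above 0.1, so the numbers were not taken to pair samples. With the replicate block, 6809, 5771 and 819 genes were called in the 3 adult comparisons, and no locus changed its call. With the column name shared by input and IP as a block (correlations of -0.0539 and 0.131), 2213, 2693 and 146 genes were called for IP against input in wt, in nipnip2 and for the interaction. IP libraries held more counts in all than input libraries, yet at most 11 at C08F11.7 and 1 at F21D9.8, so IP values bear mainly on the other 4 loci.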

Other observations

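In adults, 210 of 16585 genes had log2 differences at or below both the least fall among the 6 loci in nip2nip3 (-3.48) and that in nip3_qe17 (-3.34). Of the others among them, 158 were tested in embryo input, where 8 were called higher and 5 lower in nipnip2 and the median log2 difference was 0.02, against 1.28% higher and 5.07% lower over all genes. Of 163 tested for wt IP against input, 7 were higher and 45 lower, with a median of -1.49, against 1082 and 1183 of 9248 and a median of -0.59 over all genes. In nipnip2 12 were higher and 54 lower, with a median of -1.27, against 1464 and 1356 of 9248 and a median of -0.27. Only 46 of these genes passed the filter on low counts in the IP libraries alone. Many of the 163 were thus kept through the input, so nothing is read from the lower counts or medians. Those sets were defined by the adult values, and no test was made on them.

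Of the flanking genes, daf-4, W02D9.4 and ugt-22 were not tested in embryo input. Among the others only F55C9.3 was called, lower in nipnip2 at -0.97 (SE 0.23, adjusted p = 0.0404, edgeR quasi-likelihood). Over all genes tested there 1.28% were higher and 5.07% lower. In IP against input of nipnip2, besides F55C9.3, F33E2.5 beside dlk-1 was higher at 1.56 (SE 0.28). B0001.3, F15D4.4, F15D4.6 and the 21U-RNA locus 21ur-10492 were lower, at -1.26 (SE 0.33), -2.86 (SE 1.08), -1.49 (SE 0.3) and -2.34 (SE 0.47). Over all genes 15.8% were higher and 14.7% lower. In wt F33E2.5 (0.32, SE 0.32) and F15D4.4 (-0.52, SE 1.06) were not called. B0001.3, F15D4.6, 21ur-10492 and par-3 were lower there. Rows can be kept through the input alone, so nothing is read from the lower calls. In embryo input small RNAs at pmk-3, of the DLK-1 pathway, were higher in nipnip2 at 1.53 (SE 0.23), and those at tax-6 at 0.80 (SE 0.20). The kinase gene pmk-2 was higher at 0.83 (SE 0.19).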
